A study of Homo sapiens with 12 samples.

Results

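EDIL3, IGFN1 and ZNF503 are 3 of the 60623 genes in the count table of an RNA-seq study of A549, which is a cell line from a human lung adenocarcinoma. They were picked by their symbols, as genes with a clear rise in the SD line over the WT line, so their levels in SD and in WT chose them and are given here as a description with no test. A549 cells were infected with lentivirus and selected with hygromycin to make 4 stable lines. The V line carried the empty vector pLV-EF1a-IRES-Hygro, WT carried HA-tagged wild-type AHR, SA carried HA-AHR S489A, which replaces the PLK1 target serine by alanine, and SD carried HA-AHR S489D, which replaces it by aspartate to mimic phosphorylation. Each construct had 1 line with 3 biological replicate libraries, 12 in all, so the construct and any other difference between lines cannot be told apart, and p-values measure only the spread between these libraries. All lines were grown in the same medium, the labels name no AHR ligand, and the cells' own AHR was present in all of them. The study looked for genes highest in SD, then WT, then SA, with little difference between SA and V, that also correlated with PLK1 in patient tumours. EDIL3, IGFN1 and ZNF503 had higher means in SA than in WT, so they did not have that order.

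AHR is a transcription factor of the cytoplasm that moves to the nucleus on binding a ligand, pairs with ARNT and binds DNA at elements with the core GCGTG. EDIL3, also called DEL1, is a secreted matrix protein with EGF-like repeats and discoidin domains; its RGD motif binds integrins, and it is best known from endothelium, where it restrains leukocyte adhesion. IGFN1 is a protein of immunoglobulin and fibronectin type III domains known from the sarcomere of skeletal muscle, where it binds the elongation factor eEF1A. ZNF503 is a zinc finger repressor of the NET family that works with Groucho/TLE corepressors in the embryo and represses GATA3 in mammary cells.

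EDIL3 (ENSG00000164176) lies on the minus strand of chromosome 5 from 83940554 to 84384880 (GRCh38), with 11 exons in its canonical transcript over 444327 bases. IGFN1 (ENSG00000163395) lies on the plus strand of chromosome 1 from 201190825 to 201228952 and has 24 exons. ZNF503 (ENSG00000165655) is the most compact, with 2 exons on the minus strand of chromosome 10 from 75397830 to 75401764. The 250 bases before each start are shown because the genes were highest in the same line and the introduced protein binds DNA. They are from RefSeq on GRCh38.p14, on the strand of the gene, at chr5:84384881-84385130, chr1:201190574-201190823 and chr10:75401765-75402014, with each CG dinucleotide in capitals.
EDIL3: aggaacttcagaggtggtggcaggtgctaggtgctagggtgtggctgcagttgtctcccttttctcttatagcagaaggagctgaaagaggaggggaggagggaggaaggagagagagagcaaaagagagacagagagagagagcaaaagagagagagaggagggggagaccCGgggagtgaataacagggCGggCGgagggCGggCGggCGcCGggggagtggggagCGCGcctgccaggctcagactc
IGFN1: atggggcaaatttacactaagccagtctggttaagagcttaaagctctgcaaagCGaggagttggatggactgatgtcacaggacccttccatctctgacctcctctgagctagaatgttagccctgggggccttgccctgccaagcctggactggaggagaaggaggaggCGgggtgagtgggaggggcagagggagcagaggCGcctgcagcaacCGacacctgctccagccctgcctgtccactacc
ZNF503: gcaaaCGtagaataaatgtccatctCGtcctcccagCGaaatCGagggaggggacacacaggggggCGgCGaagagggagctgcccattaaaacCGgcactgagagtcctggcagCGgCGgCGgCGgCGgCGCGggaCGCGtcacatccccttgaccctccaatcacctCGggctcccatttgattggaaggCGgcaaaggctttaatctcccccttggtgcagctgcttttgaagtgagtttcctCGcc
The EDIL3 window held 9 CG dinucleotides, the IGFN1 window 4 and the ZNF503 window 19, against a median of 11 and quartiles of 3 and 23 over 35116 promoter windows of the same length. GCGTG was searched on both strands and was in none of the 3 windows, while 32.2% of all windows held it. No match says only that these letters are absent from these bases.

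The count totals of the libraries lay between 7844045 and 11765576 in WT and SA, with V and SD within that range, and replicates differed by more than sampling noise. The sum of AHR and the overlapping gene ENSG00000283321, which together took the reads of the introduced AHR, was 65.8 to 74.3 CPM (the share of the library's counts in parts per 1e6, scaled by TMM) for V, 450 to 480 for WT, 371 to 407 for SA and 290 to 305 for SD. Every AHR line was thus above V, and SD had the least of the 3 AHR lines. The epithelial markers KRT8, KRT18 and CDH1 were high in all libraries, but EPCAM was at most 1.75 CPM and KRT19 at most 0.536 CPM, and the alveolar markers SFTPA1, SFTPA2, SFTPB, SFTPC, NKX2-1 and LAMP3 were each at most 0.401 CPM. Of the other alveolar markers, NAPSA was 2.8 to 4.51 CPM and ABCA3, a lipid transporter, was 66.3 to 79 CPM, which made up most of the summed level of the 8 markers. The summed level of 5 epithelial markers was 6050 to 6300 CPM in V, 4830 to 4860 in WT, 4660 to 4820 in SA and 4400 to 4630 in SD. Every AHR line was thus below V, and the part of this sum in the results was not tested. KRT8 and KRT18 made up most of the sum, with SD means of 2440 and 1960 CPM. CDH1 had a mean of 126 CPM in SD, below the 170 CPM of V and above the 112 CPM of WT and of SA. Its log2 difference of 0.17 between SD and WT did not pass (standard error 0.0631, edgeR adjusted p = 0.279).

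EDIL3 had the lowest counts of the 3 genes and the largest fold between SD and WT. The V libraries held 11.9, 12.7 and 13.6 CPM, the WT libraries 12.6, 12.3 and 12.7 CPM, the SA libraries 15.7, 19.4 and 18.1 CPM and the SD libraries 24.3, 25.7 and 23.2 CPM. All SD libraries were above the other 9, all SA libraries were above those of V and WT, and V and WT overlapped. The mean was 12.7 ± 0.82 CPM for V, 12.5 ± 0.209 for WT, 17.7 ± 1.85 for SA and 24.4 ± 1.29 for SD (± standard deviation, n = 3). These values rest on 99 to 260 counts per library. On the log2 scale SD was 0.96 above WT (standard error 0.117, 1.95-fold), 0.94 above V (0.118) and 0.45 above SA (0.111).

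IGFN1 had the same order of means, with less even replicates. The V libraries held 21.9, 23.2 and 22.8 CPM, the WT libraries 23.6, 24.0 and 19.9 CPM, the SA libraries 42.3, 28.9 and 30.4 CPM and the SD libraries 45.0, 43.2 and 35.3 CPM. V and WT overlapped, SA and SD were above both, and SA replicate 1 was above SD replicate 3, so that SA and SD overlapped. The mean was 22.7 ± 0.682 CPM for V, 22.5 ± 2.24 for WT, 33.9 ± 7.32 for SA and 41.2 ± 5.19 for SD (± standard deviation, n = 3). SD was 0.87 above WT on the log2 scale (standard error 0.107, 1.82-fold), 0.86 above V (0.101) and 0.29 above SA (0.12). Without SA replicate 1 the difference between SD and SA was 0.47, and without SA replicate 2 it was 0.18.

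ZNF503 had the smallest fold between SD and WT. The V libraries held 40.8, 38.2 and 35.0 CPM, the WT libraries 39.1, 39.5 and 37.6 CPM, the SA libraries 50.3, 39.8 and 44.7 CPM and the SD libraries 54.6, 54.4 and 62.8 CPM. All SD libraries were above the other 9, V and WT overlapped, and SA replicate 2 lay below V replicate 1. The mean was 38.0 ± 2.9 CPM for V, 38.8 ± 0.987 for WT, 44.9 ± 5.26 for SA and 57.2 ± 4.82 for SD (± standard deviation, n = 3). SD was 0.56 above WT on the log2 scale (standard error 0.0812, 1.48-fold), 0.59 above V (0.0843) and 0.36 above SA (0.0879). Of all genes tested in SD against WT, 1.43% had all 3 SD libraries above the other 9, as EDIL3 and ZNF503 did, and 6.81% of those tested in SD against SA had no overlap with SD above. The SD libraries were part of the choice, so nothing is read from these shares. In bulk RNA, more cells with a transcript and more of it per cell cannot be told apart.

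**Figure D1:**
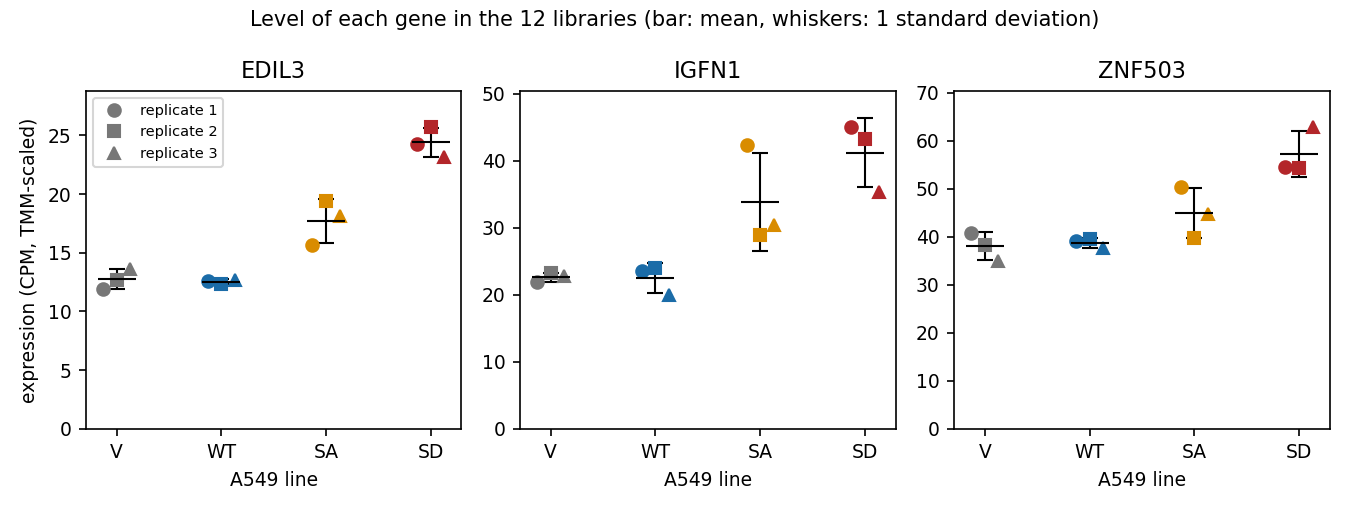
Level of EDIL3, IGFN1 and ZNF503 (CPM, axis from 0) in the 12 libraries of the 4 A549 lines, with the mean as a bar and 1 standard deviation as whiskers. SD has the highest mean for each gene, V and WT overlap, and for IGFN1 the SA library at 42.3 CPM lies above the SD library at 35.3 CPM.

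The WT libraries overlapped those of V in each of the 3 genes. The log2 difference of WT from V was -0.03 (standard error 0.139) for EDIL3, -0.01 (0.106) for IGFN1 and 0.03 (0.084) for ZNF503. WT lay below SA by log2 differences of -0.51 (0.127), -0.58 (0.123) and -0.21 (0.0866) in the same order, and all WT libraries were below all SA libraries for each gene, as for 6.32% of the genes tested. Low values in WT were part of the choice, and the part of the AHR transcript level in these values was not tested.

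SA against V used neither the SD nor the WT libraries, whose levels chose the genes, and here the difference was tested. The genes were chosen with earlier results of these data known, so this test cannot be called independent of the choice. EDIL3 rose by 0.48 on the log2 scale (standard error 0.13, 1.39-fold, adjusted p = 0.0217) and IGFN1 by 0.57 (0.115, 1.49-fold, adjusted p = 0.00178) in edgeR's quasi-likelihood test. ZNF503 differed by 0.24 (0.0888, 1.18-fold), with an adjusted p of 0.115 in edgeR. All SA libraries were above all V libraries for EDIL3 and IGFN1, which held for 12.3% of the genes tested. Of all 14913 genes tested, 3.88% were called higher in SA than in V, 3.29% lower and 7.17% were called in either direction. Leaving out SA replicate 2 (edgeR adjusted p = 0.119), SA replicate 3 (0.0775), V replicate 1 (0.106) or V replicate 2 (0.0542) ended the EDIL3 call, and ZNF503 passed without SA replicate 2 (log2 difference 0.32, adjusted p = 0.0469). IGFN1 passed whichever library was left out, and its log2 difference was 0.39 without SA replicate 1.

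**Figure D2:**
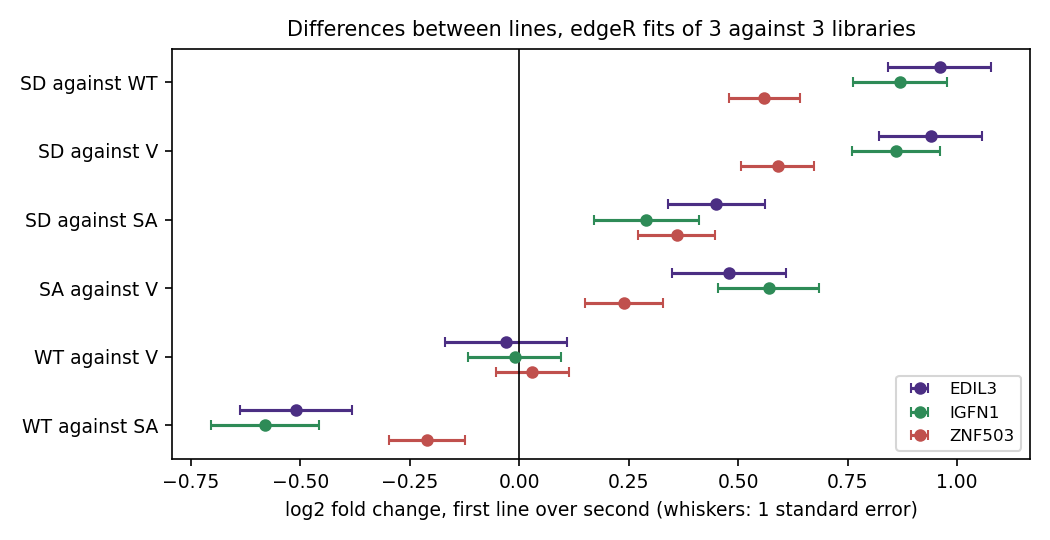
Log2 fold change of EDIL3, IGFN1 and ZNF503 in each pair of lines, with 1 standard error as whiskers, from edgeR fits of 3 against 3 libraries. The points for WT against V lie within 0.03 of 0, those for SA against V between 0.24 and 0.57, and those for SD against WT between 0.56 and 0.96.

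Per kilobase of exon, ZNF503 was the most abundant of the 3 genes in every line. It had 12.1 ± 0.308 CPM per kb in WT and 17.8 ± 1.5 CPM per kb in SD. EDIL3 had 2.15 ± 0.0359 CPM per kb in WT and 4.19 ± 0.221 CPM per kb in SD, and IGFN1 had 1.86 ± 0.185 and 3.4 ± 0.428 CPM per kb (± standard deviation, n = 3). IGFN1 was thus at a low level per length, and the defining muscle genes DES, MYOD1, MYOG, MYH2, MYH7, ACTC1 and TNNT2 had 0 counts in all 12 libraries. Of the summed level of 12 muscle markers, 2.47 to 5.21 CPM, nearly all came from MYH3. Of 5 endothelial markers, the summed level was at most 0.316 CPM, and it was 0 in all SD libraries.

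Ordered by p among genes with SD above WT, EDIL3 ranked 4, IGFN1 6 and ZNF503 9, and 76 genes (0.513% of 14828) were called higher and 0.196% lower. The ranking chose these genes and supports nothing further. The genes ranked next to the 3 had smaller log2 differences than EDIL3 and IGFN1. FOSL2, a subunit of AP-1, was 0.43 above WT (standard error 0.0508, edgeR adjusted p = 4.15e-05), and C3, the central complement component, was 0.53 above WT (0.0653, adjusted p = 5.83e-05). COL5A1, a chain of type V collagen, was 0.51 above WT (0.065, edgeR adjusted p = 9.21e-05). PAPPA, a protease of IGF-binding proteins, was 0.43 above WT (0.0558, adjusted p = 9.76e-05), and CXCL5, a chemokine for neutrophils, was 0.4 above WT (0.0583, adjusted p = 0.000482).

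The tested integrin genes, receptors of EDIL3 or related ligands, ranged widely in level, from ITGB8 at a mean of 1.46 CPM to ITGB1 at 1900 CPM. Of 9 integrin receptor genes tested, 0 were called in SD against WT by edgeR's quasi-likelihood test (1 at an unadjusted p under 0.05, 0 by DESeq2, 1 by edgeR's exact test) and the median log2 difference was 0.04, against 0 over all genes tested and 0.708% of them called. ITGAV, the alpha subunit that pairs with ITGB3 and ITGB5 to bind EDIL3, was 0.04 above WT (standard error 0.0692, edgeR adjusted p = 0.899) at a mean of 229 CPM. ITGB5 was 0 above WT (0.0519, edgeR adjusted p = 0.988) at 409 CPM, and ITGB1 was 0.02 above WT. The genes with the lowest levels had wide errors, as for ITGAM at -0.48 (standard error 0.358, edgeR adjusted p = 0.693). The V libraries held 13.1, 17.4 and 14.2 CPM, the WT libraries 25.4, 26.5 and 22.4 CPM, the SA libraries 26.5, 25.9 and 28.4 CPM and the SD libraries 35.6, 27.5 and 35.6 CPM of ITGB3. It was higher in WT, SA and SD than in V without overlap, as for 11.1%, 12.3% and 10.7% of the genes tested, and all SD libraries were above those of WT while SD and SA overlapped. ITGB3 rose by 1.15 in SD over V (standard error 0.123, edgeR adjusted p = 4.17e-07), and its difference of 0.41 between SD and WT (0.111, adjusted p = 0.0901) did not pass. ITGB3 passed there in edgeR's exact test (adjusted p = 0.0341). In the quasi-likelihood test it passed with every gene of at least 1 count (0.0157) and without SD replicate 2 (0.0357), and under no other alternative. Not all of its expected counts were whole numbers, so some of its reads were shared with another gene model.

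Among other ligands with an RGD motif, 3 of 17 tested genes were called higher in SD than in WT and 0 lower, with a median log2 difference of 0.07. Over all genes tested, 0.513% were called higher and 0.196% lower. This list was chosen with earlier results of these data known, so nothing is read from the count. The fibrillin gene FBN1, a microfibril component, was 58.2, 51.1 and 53.6 CPM in WT and 83.9, 75.9 and 73.0 CPM in SD, a rise of 0.52 (standard error 0.076, edgeR adjusted p = 0.000569). It was 54.1, 45.5 and 55.1 CPM in V and 59.0, 50 and 53.9 CPM in SA, so that SD stood above the other 9 libraries. FBN2, the second fibrillin gene, was 38.5, 41.7 and 33.5 CPM in WT and 53.5, 60.0 and 47.8 CPM in SD, a rise of 0.5 (0.0942, edgeR adjusted p = 0.00834). Unlike EDIL3 it was highest in V, at 58.8, 63.4 and 65.1 CPM, and its call in SD against WT was lost without SD replicate 2 (adjusted p = 0.0876), WT replicate 1 (0.052) or WT replicate 3 (0.0763). SPP1, which encodes osteopontin, was 99.4, 107 and 116 CPM in WT and 151, 142 and 133 CPM in SD, a rise of 0.4 (0.0658, edgeR adjusted p = 0.00203). It was 123, 127 and 137 CPM in V and 125, 130 and 130 CPM in SA, so WT was the low line, SD overlapped V, and the difference of 0.14 between SD and V did not pass (0.0622, edgeR adjusted p = 0.223). The most abundant other ligands, the laminin chain LAMA5 and fibronectin FN1, differed by 0.11 and -0.06 between SD and WT and did not pass (edgeR adjusted p = 0.553 and 0.801).

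In SD against SA, FBN1 and FBN2 were the RGD ligands that rose, 2 of 17 tested, with a median log2 difference of 0.15. FBN1 rose by 0.52 (standard error 0.078, edgeR adjusted p = 0.00323) and FBN2 by 0.54 (0.0858, adjusted p = 0.00557), where 0.22% of the 15030 genes tested were called, 0.16% as higher and 0.0599% as lower in SD. Leaving out SA replicate 2 ended both calls (adjusted p = 0.0513 each), and leaving out SD replicate 2 ended that of FBN2 (0.0535). SPP1 differed by 0.15 (0.0617, edgeR adjusted p = 0.517). In the other 4 lists 0 genes were called by edgeR's quasi-likelihood test, DESeq2 or edgeR's exact test, with 1 integrin receptor, 3 discoidin, 3 muscle and 1 NET family gene at an unadjusted p under 0.05. In this comparison a gene at an unadjusted p of 0.0532 in the quasi-likelihood test ranked 1358 of 15030.

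The discoidin family shares a domain with EDIL3. Of 9 genes tested, 8 had a positive difference between SD and WT and 0 were called by edgeR (4 at an unadjusted p under 0.05, 0 by DESeq2, 1 by edgeR's exact test), with a median log2 difference of 0.18. Over all genes tested the median was 0 and 0.708% were called. Unadjusted p-values under 0.05 were common: a gene at 0.0486 in edgeR's quasi-likelihood test ranked 1554 of 14828. In SD against V, 6 of the 9 differences were positive and 3 negative. MFGE8, the closest relative of EDIL3, was 94.9, 99.6 and 91.6 CPM in WT and 115, 107 and 115 CPM in SD. In V it was 118, 118 and 106 CPM, overlapping SD, with a difference of -0.02 between SD and V (standard error 0.0629, edgeR adjusted p = 0.914). Its difference of 0.23 (standard error 0.0623, edgeR adjusted p = 0.0883) missed the threshold although the groups did not overlap, as for 8.33% of the genes tested. Of the most abundant others, the semaphorin receptor gene NRP2 differed by 0.18 (edgeR adjusted p = 0.193) and CNTNAP3 by 0.06 (0.786).

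For IGFN1, 14 muscle proteins with immunoglobulin or fibronectin type III domains, together with partners such as the eEF1A genes, were tested in SD against WT and 0 were called by edgeR (1 at an unadjusted p under 0.05, 0 by DESeq2, 0 by edgeR's exact test), with a median log2 difference of 0. EEF1A1, a gene of the elongation factor that IGFN1 binds, differed by -0.06 (standard error 0.0549, edgeR adjusted p = 0.78) at a mean of 5620 CPM, and the myosin light chain kinase gene MYLK by -0.06 (0.0541, adjusted p = 0.767). EEF1A2, another eEF1A gene of the list, was 199, 196 and 215 CPM in WT. In SD it was lower, at 172, 188 and 189 CPM, without a call. For ZNF503, 18 genes of the NET family and its corepressors were tested and 0 were called by edgeR (1 at an unadjusted p under 0.05, 0 by DESeq2, 0 by edgeR's exact test), with a median log2 difference of 0.01. ZNF703, the other NET family gene of human cells, was 13.0, 12.7 and 12.6 CPM in WT and 14.1, 13.8 and 11.7 CPM in SD, overlapping, with a difference of 0.05 (standard error 0.138, edgeR adjusted p = 0.939). The corepressor gene NCOR1 differed by -0.12 (edgeR adjusted p = 0.41). GATA3, which ZNF503 represses in mammary cells, differed by -0.11 (edgeR adjusted p = 0.899).

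**Figure D3:**
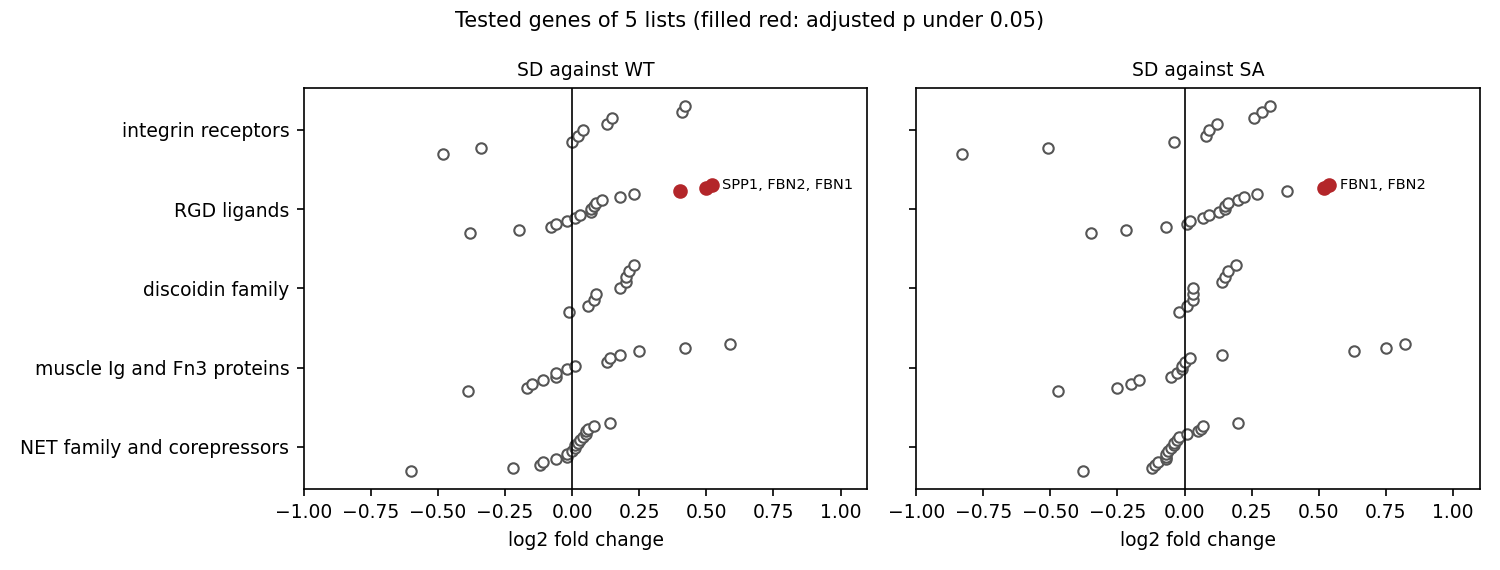
Log2 fold change of every tested gene of 5 gene lists for SD against WT (left) and SD against SA (right), with genes at an adjusted p under 0.05 filled in red. The called genes, all RGD ligands, are FBN1, FBN2 and SPP1 on the left and FBN1 and FBN2 on the right.

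In SD against V, 16 of the 97 listed genes tested were called (16.5%), where 5.41% of all 14890 genes were (2.92% as higher and 2.49% as lower in SD). In SD against WT, 4 of 97 were called (4.12%), where 0.708% of all genes were. Both counts include genes near the 3 loci. The lists were chosen with earlier results of these data known, so nothing is read from these shares. Among the integrin receptors ITGB3 was called. Of the RGD ligands, FBN1 rose by 0.59 (standard error 0.0798, edgeR adjusted p = 1.47e-05), the matrix glycoprotein gene TNC by 1.05 (0.115, adjusted p = 5.76e-07) and the adhesion molecule gene L1CAM by 0.54 (0.151, adjusted p = 0.0339). The TGF-beta binding protein gene LTBP1 fell by 0.37 (0.0895, edgeR adjusted p = 0.0123) and the fibrinogen chain gene FGA fell by 1.56 (0.2, adjusted p = 6.34e-06). Of the discoidin genes, NRP1 rose by 0.28 (0.059, edgeR adjusted p = 0.00326) and DCBLD2 by 0.17 (0.0507, adjusted p = 0.0441). Of the muscle list, SPEG rose by 0.64 (0.155, adjusted p = 0.0115) and EEF1A2 by 0.19 (0.0564, adjusted p = 0.0445) in edgeR, while the actin-associated genes PALLD and MYPN fell by 0.29 (0.0593, adjusted p = 0.00231) and 0.59 (0.161, adjusted p = 0.0288) and COBL fell by 0.82 (0.234, adjusted p = 0.0373). No gene of the NET family and corepressors was called (0 of 18 by edgeR, 1 at an unadjusted p under 0.05, 0 by DESeq2, 1 by edgeR's exact test). In this comparison a gene at an unadjusted p of 0.0318 in the quasi-likelihood test ranked 2111 of 14890. For TNC, L1CAM, NRP1, DCBLD2, SPEG and EEF1A2 all WT and SA libraries were also above V, as for 11.1% and 12.3% of the genes tested. For LTBP1, FGA, PALLD, MYPN and COBL all WT and SA libraries were also below V (in SA, 11.5% of the genes tested). SPEG was highest in SA, and EEF1A2 was lower in SD than in WT or SA. For FBN1 the WT and SA libraries overlapped V. DESeq2 called 11 listed genes, without COBL (adjusted p = 0.0676), EEF1A2 (0.0558), L1CAM (0.0637), MYPN (0.055) and NAV1 (0.103). Of the 16 calls, 8 passed whichever library was left out (ELF3, FBN1, FGA, INAVA, ITGB3, NRP1, PALLD and TNC). SPEG was lost without V replicate 3 (edgeR adjusted p = 0.0636), LTBP1 without SD replicate 2, V replicate 1 or V replicate 3 (0.0759, 0.0972 and 0.074), and COBL without any 1 of the 6 libraries (0.0527 to 0.216). DCBLD2 was lost without SD replicate 2 or any V replicate (0.104 to 0.214), EEF1A2 without SD replicate 2, SD replicate 3 or any V replicate (0.111 to 0.197), and NAV1 without SD replicate 2 or any V replicate (0.067 to 0.238). L1CAM was lost without replicate 1 or 2 of either line (0.0814 to 0.179), and MYPN without replicate 1 or 2 of SD or replicate 2 or 3 of V (0.0618 to 0.155).

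Around EDIL3, within 1 Mb of its ends, 26 genes were listed and 3 were tested. VCAN, which encodes the matrix proteoglycan versican, ends 358251 bases beyond the 3′ end of EDIL3. The V libraries held 2.78, 4.24 and 2.42 CPM, the WT libraries 1.78, 2.28 and 0.891 CPM, the SA libraries 1.9, 1.28 and 0.883 CPM and the SD libraries 6.71, 5.9 and 3.12 CPM. SD was above all WT and SA libraries but overlapped V, and all SA libraries were below those of V, as for 11.5% of the genes tested, so VCAN did not follow the order of EDIL3. In SD it rose by 1.62 over WT (standard error 0.353, edgeR adjusted p = 0.0265) and by 1.95 over SA (0.353, adjusted p = 0.0161), on 35 to 67 counts per SD library. The call over WT ended on leaving out replicate 1 or 2 of SD or replicate 1 or 3 of WT (edgeR adjusted p = 0.106 to 0.139), and the call over SA on leaving out replicate 1 or 2 of SD or replicate 2 or 3 of SA (0.0793 to 0.131). HAPLN1, a link protein gene between VCAN and EDIL3, had 0 counts in all 12 libraries, which allows up to 3 counts in each. Of the other tested genes, the DNA repair gene XRCC4 differed by -0.12 (edgeR adjusted p = 0.831) and TMEM167A by 0.07 (0.791) in SD against WT; no tested gene lay on the side of the EDIL3 start.

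Around IGFN1, 21 of 64 genes were tested, and 0 were called in SD against WT by edgeR (1 at an unadjusted p under 0.05, 0 by DESeq2, 1 by edgeR's exact test) and 0 in SD against SA (2, 0 and 0). The nearest, TMEM9, lies 19251 bases before IGFN1 and differed by 0.27 (standard error 0.0756, edgeR adjusted p = 0.103), and PHLDA3, 235326 bases beyond it, by -0.03. In SD against V, NAV1 rose by 0.35 (0.102, edgeR adjusted p = 0.0413), while INAVA fell by 0.65 (0.0901, adjusted p = 2.09e-05) and the epithelial transcription factor gene ELF3 fell by 0.37 (0.0585, adjusted p = 0.000151). For NAV1, INAVA and ELF3 the WT and SA libraries lay on the same side of V as those of SD. The expected counts of ELF3 were not whole numbers in any library, so some of its reads were shared with another gene model. Around ZNF503, 7 of 39 genes were tested and 0 were called in SD against WT or SD against SA by edgeR, DESeq2, edgeR's exact test or at an unadjusted p under 0.05. In SD against V 0 were called by these tools, with 1 at an unadjusted p under 0.05. ZNF503-AS2, an antisense gene that overlaps ZNF503, was 3.5, 4.4 and 4.72 CPM in SD and 6.1, 4.12 and 4.9 CPM in WT, overlapping, with a log2 difference of -0.24 (standard error 0.244, edgeR adjusted p = 0.79). The neighbours COMTD1 and LRMDA differed by -0.04 and -0.31 (edgeR adjusted p = 0.95 and 0.818). Antisense genes also overlap EDIL3 (ENSG00000250320, at most 9 counts in a library) and IGFN1 (ENSG00000229821, at most 3 counts). The expected counts of EDIL3, IGFN1, ZNF503 and ZNF503-AS2 were whole numbers in every library, so none of their reads were split with another gene model. Whether counting used the strand is not given in the sources used here, so the strand that a read came from cannot be told.

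**Figure D4:**
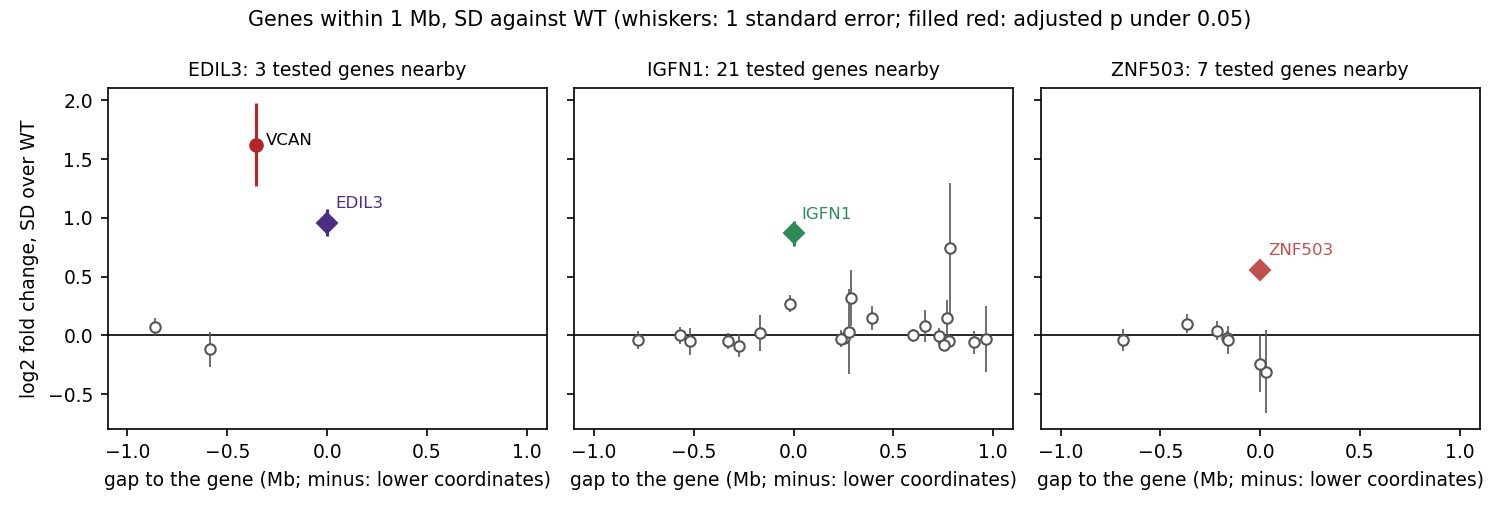
Log2 fold change in SD against WT of the tested genes within 1 Mb of EDIL3, IGFN1 and ZNF503, by the gap to the gene in Mb, with 1 standard error as whiskers. The gene itself is the diamond at 0, and VCAN near EDIL3 is the only neighbour at an adjusted p under 0.05.

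The genes most like each of the 3 were taken by Pearson's correlation of log2 CPM over the 12 libraries among 15452 genes, as a measure of likeness; the libraries fall into 4 lines, which the points share. For EDIL3 they were FOSL2 (r = 0.945), the antiproliferative gene TOB1 (0.94), the actin-binding gene LIMA1 (0.934), the sulfate transporter gene SLC26A2 (0.916) and TSKU (0.912). For IGFN1 they were COL5A1 (r = 0.954), the orphan receptor gene GPRC5C (0.942), MYO18A (0.917), DHRS7 (0.905) and HEG1 (0.898). For ZNF503 they were FOSL2 (r = 0.926), IRF2BP2 (0.912), EBLN2 (0.908), COL5A1 (0.896) and RAC3 (0.887), and EBLN2 was near the floor of counts at 1.79 CPM. FOSL2 was in the list of both EDIL3 and ZNF503, and COL5A1 in that of both IGFN1 and ZNF503. FOSL2 averaged 362 ± 14.1 CPM for V, 382 ± 3.15 for WT, 448 ± 2.53 for SA and 513 ± 11.7 for SD, and COL5A1 had 184 ± 0.606, 188 ± 17.2, 221 ± 19.9 and 267 ± 17.3 CPM in the same order (± standard deviation, n = 3).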

How the data were processed

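PolyA RNA of 4 A549 lines was sequenced, with 3 libraries per line. The authors trimmed reads with Trimmomatic 0.39, mapped them to GRCh38 transcripts with RSEM and deposited expected counts per gene, unnormalized; the RSEM version and the strand setting are not given in the sources used here. A second deposited table holds the authors' own log2 fold changes, p-values and q-values for pairs of lines and was not used.

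The expected counts were rounded, and edgeR 4.0.16 (R 4.3.3) was run for each pair of lines on the 6 libraries of that pair, after filterByExpr (minimum count 10, minimum total 15), with TMM and the two-sided quasi-likelihood test, Benjamini-Hochberg adjustment over all genes tested and a threshold of 0.05. Standard errors come from the F statistics. DESeq2 1.42.0 was an alternative, and the scripts were tested on simulated data. CPM are TMM-scaled over the 12 libraries. Totals of 7844045 to 11765576 counts set the precision. Of 60623 genes, 53489 have the start and end of GENCODE v44, and printed coordinates are the deposited ones. GENCODE places the IGFN1 start 1 base lower.

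The 3 genes and the gene lists were chosen with earlier results of these data known. Named are, of each list, the genes called in SD against WT, SA or V and the 2 most abundant others, genes called or nearest within 1 Mb, the 5 most correlated genes, and those ranked next to each gene. ITGAV, MFGE8, ZNF703 and GATA3 were added after their values were seen. One gene that this rule names is not reported here. Protein sequences were not used here.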

Additional observations from a re-analysis of the deposited data

How the results depend on the processing

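Of the counts of calls and the log2 differences of the 3 genes recomputed under alternatives, 214 were taken as kept, 28 moved further and 0 turned direction. Counts were taken as kept within a set ratio, such as 145 against 105 genes called in SD against WT. Log2 differences with SD were taken as kept within the gene's replicate standard deviation, such as 0.18 against 0.29 for IGFN1 in SD against SA. Those in SA against V were kept if they stayed on their side of the threshold. In SA against V, EDIL3 lost its call under 4 and ZNF503 gained one under 1. Lost calls of single listed genes stand beside those genes above. Genes called in SD against WT went from 105 to 252 with every gene of at least 1 count and 222 with edgeR's exact test, and the listed genes called went from 4 to 7 with the exact test. Genes called in SD against SA went from 33 to 153 and 98 under the same settings; the causes were not tested. Leaving out 1 library gave 45 to 145 genes called in SD against WT, 11 to 56 in SD against SA, 502 to 856 in SD against V and 621 to 1195 in SA against V, and 2 to 4, 0 to 3 and 9 to 17 listed genes in the first 3 comparisons. In SA against V, the log2 difference was then 0.41 to 0.56 for EDIL3 and 0.15 to 0.32 for ZNF503. Of the 3 genes, the log2 differences in SD against WT then stayed at 0.92 to 1 (EDIL3), 0.78 to 0.97 (IGFN1) and 0.49 to 0.6 (ZNF503). DESeq2 gave VCAN no adjusted p, and with at least 10 counts in every library VCAN was not tested in SD against WT.

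Deviations from the line means correlated weakly in the 18 pairs of libraries with the same replicate number, at -0.0375 to 0.106, with 1 above 0.1. In the 36 pairs with different numbers they correlated at -0.0991 to 0.0653. Between WT, SA and SD every same-numbered pair was positive, at 0.0171 to 0.0549. These values cannot settle whether the replicate numbers pair the libraries, and the main fits used no block. With a replicate block, 245 genes were called for SD against WT and 165 for SD against SA, compared with 105 and 33 without it. Depth limits genes such as VCAN, with 8 to 67 counts per library.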
